A study of Rattus norvegicus with 30 samples.

Results

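Kidneys of Sprague-Dawley rats aged 5 wk were compared with kidneys of rats aged 1 wk, gene by gene and by nephron segment, transported solute, metabolic pathway and growth system. The comparison used 10 of the 30 arrays of the series, namely the 5 whole kidneys labelled 5 wk on a normal diet and the 5 labelled 1 wk. All 10 rats were wild-type and none was of the tryptophan-deficient groups. The labels give their ages as 35 days and 7 days, and a change of food between those ages cannot be told apart from age. The other 20 arrays are lungs of the same ages and kidneys and lungs of 5 wk rats whose food had been tryptophan-deficient between birth and 4 wk. The deficient kidneys shared the estimate of the spread and entered no comparison here. The series compares fast-growing young with more slowly growing older animals. The labels name the rat, while the design text speaks of mice, and neither gives sex, litter or the hour of collection. Both Y-linked genes tested had signal on all 10 arrays, Eif2s3y at 926 to 1111 at 1 wk and 663 to 900.0 at 5 wk, and Uty at 678 to 738 and 496 to 651.

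The kidney filters plasma in the glomerulus, reclaims most of the filtrate in the proximal tubule, and sets the final urine in the loop of Henle, the distal tubule and the collecting duct. In the rat, new nephrons still form for a short time after birth from a pool of progenitor cells, and the tubules then lengthen and acquire adult transport while the diet changes from milk to solid food. Because a nephron segment has its own transporters and enzymes, a whole-kidney array reads both the amount of a segment and what its cells make.

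Signals below are the authors' scaled array intensities, and a difference is the mean of log2(signal + 16) at 5 wk minus that at 1 wk, with its standard error (SE). Means are given with the SD over 5 arrays, and 5 arrays per age limit the precision. A gene is said to have risen or fallen where limma's Benjamini-Hochberg adjusted p over all genes tested was below 0.05. Folds are ratios of signal + 16, printed only if the means of both ages reached the 40th percentile of their arrays. Values listed for an age are in the order of replicates 1 to 5, and replicates have no order in time. In whole kidney, fewer cells of a type and less RNA per cell cannot be told apart, and this holds for every cell type named below.

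Of 10908 genes tested, 3382 rose (31%) and 4462 fell (40.9%), so 71.9% were called, and a list's count has to be read against those shares. The median difference of all genes was -0.07. The 10 arrays had been scaled to a common trimmed mean, but the median signal lay between 179.5 and 192 at 1 wk and between 148 and 156 at 5 wk. Centring each array on its own median moved the median difference by 0.274 and turned the split to 5363 genes rising and 2684 falling, so that falls were 33.4% of calls in place of 56.9%. With quantile normalization 3882 rose and 4003 fell, 50.8% of calls. Differences closer to 0 than about that shift therefore depend on the scaling, and lists whose balance turned are named as such. Of the 33 tested genes named here that did not pass, 26 were called after centring. Markers of the labelled tissue had signals above the 40th percentile on all 10 arrays. At 1 wk and at 5 wk the ranges were those of Nphs1 of the glomerulus (1012 to 1192 and 330.5 to 448), Slc34a1 of the proximal tubule (11424 to 13297 and 13652 to 16833), Umod of the thick limb (9116 to 9955 and 14121 to 16976) and Aqp2 of the collecting duct (4616 to 5863 and 6706 to 8841).

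The 1 wk kidneys also held signal of liver products that varied widely between rats. Alb, which encodes serum albumin, was at 9504, 2873, 17459.8, 1423 and 1691 at 1 wk and between 64.5 and 361 at 5 wk. Over the 20 liver markers on the array, the summed signal ran from 6604 to 78370 at 1 wk. At 5 wk it ran from 1839 to 2528. Among the 1 wk kidneys replicates 1 and 3 were the highest. Of the 14 markers tested, 11 fell and 3 did not pass, while without replicate 3 another rose and without both 3 rose. Results that change without replicates 1 and 3 are given with that value. Ucp1, a brown fat gene, was at 785, 2639, 456, 677 and 933 at 1 wk, highest in replicate 2, and between 59.7 and 734 at 5 wk.

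Genes of the nephron-forming zone were lower at 5 wk. Of 12 tested genes of nephron progenitors and nascent nephrons, 8 fell, 2 rose and 2 did not pass, with a median difference of -0.95. Wnt4, the signal that turns progenitors into epithelium, was at 842, 822, 790.3, 719.9 and 814 in the 1 wk kidneys and at 68.3, 62.8, 80.7, 54.3 and 52.4 in the 5 wk kidneys. Every 1 wk kidney lay far above every 5 wk kidney, and the 5 wk values were below the 40th percentile (87.0 to 113 over the 15 kidneys), so no fold is given (-3.36 ± 0.10, limma adjusted p = 1.14e-12). Wnt11, made at the tips of the branching ureteric bud, fell from 193 ± 63.9 to 4.05 ± 1.02 (-3.33 ± 0.15), and Uncx, a transcription factor of the early nephron, from 299 ± 31.5 to 69.3 ± 14.2 (-1.89 ± 0.10). The adhesion gene Cdh6 fell 1.86-fold (-0.90 ± 0.09). Eya1, a progenitor transcription cofactor (0.66 ± 0.11), and Gfra1, a receptor for the branching signal GDNF (0.38 ± 0.12), rose. The transcription factors Sall1 (0.08 ± 0.06, adjusted p = 0.203) and Lhx1 (-0.14 ± 0.13, adjusted p = 0.325) did not pass. The progenitor genes Six2 and Cited1 were not analysed here.

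Genes of the stroma and of vessel walls were lower as well. Of 14 renal stroma genes 11 fell, 2 rose and 1 did not pass (median -1.35). Aldh1a2, which makes retinoic acid in stroma, was at 3692, 3825, 3852, 3947 and 4154 at 1 wk and at 586, 500.2, 403, 675 and 507 at 5 wk, a 7.2-fold fall between groups of arrays that did not overlap (-2.85 ± 0.12, adjusted p = 2.62e-11). The transcription factors Tcf21 and Meis1 fell 5.83-fold and 5.61-fold, and Tnc, the matrix protein tenascin C, fell (-2.96 on the log2 scale). Ntn1, the guidance cue netrin 1, rose 2.44-fold (1.29 ± 0.09), and Smoc2, a matrix protein, rose 1.44-fold, though not over the mean of its probe sets (0.36). Dcn, the matrix proteoglycan decorin, did not pass (-0.21 ± 0.14, adjusted p = 0.179), but did as lower in a fit of only the 10 arrays compared (-0.21) and with quantile normalization (-0.51). All 10 genes of renin, mesangial and vascular wall cells fell (median -1.26). Acta2, smooth muscle actin, was at 1771, 2014, 2761, 2203 and 2189.7 at 1 wk and at 422, 391, 333, 409 and 381 at 5 wk, 5.42-fold lower with no overlap (-2.44 ± 0.12). The adhesion molecule Mcam fell 3.26-fold and the muscle gene Des 2.22-fold.

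In the glomerulus, 9 of 12 podocyte genes fell, 1 rose and 2 did not pass (median -0.69). Wt1, the transcription factor that podocytes keep from the progenitor stage, was at 1982, 1579, 1397, 1642 and 1628 at 1 wk and at 308, 389.7, 388, 284 and 231 at 5 wk. The lowest 1 wk kidney was above the highest 5 wk kidney, and the fall was 5-fold (-2.32 ± 0.13, adjusted p = 3.98e-10). Nphs1, the slit diaphragm protein nephrin, fell 2.78-fold (-1.47 ± 0.10) and Thsd7a, a podocyte membrane protein, fell 3.31-fold. Col4a4, a chain of the mature glomerular basement membrane, was at 143, 129, 145, 133 and 115 at 1 wk and at 317, 347, 300.1, 263 and 315 at 5 wk, without overlap, and rose 2.18-fold (1.12 ± 0.07). Actn4, a podocyte actin crosslinker (-0.00 ± 0.10, adjusted p = 0.996), and Clic5 of podocyte foot processes (0.01 ± 0.09, adjusted p = 0.901) did not pass. Clic5 passed as higher after centring (0.29) and with quantile normalization (0.24), and Actn4 after centring (0.27). Of 15 endothelial genes 8 fell, 3 rose and 4 did not pass (median -0.18). After centring the arrays, 5 fell and 6 rose, so the balance of the endothelial list turned with the scaling. The transcription factors Sox17 (2.49-fold, -1.32 ± 0.06) and Sox18 (2.15-fold) and the VEGF receptor Kdr (1.55-fold, -0.63 ± 0.07) fell. Vwf, the clotting factor that endothelium stores, rose 2.92-fold (1.55 ± 0.14), from 126 ± 28.5 to 400.0 ± 86.3. Pecam1 did not pass (-0.18 ± 0.09, adjusted p = 0.0771), but did as lower without 1 wk replicate 4 or 5 wk replicate 1 (each -0.22) or 5 wk replicate 4 (-0.24).

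**Figure D1:**
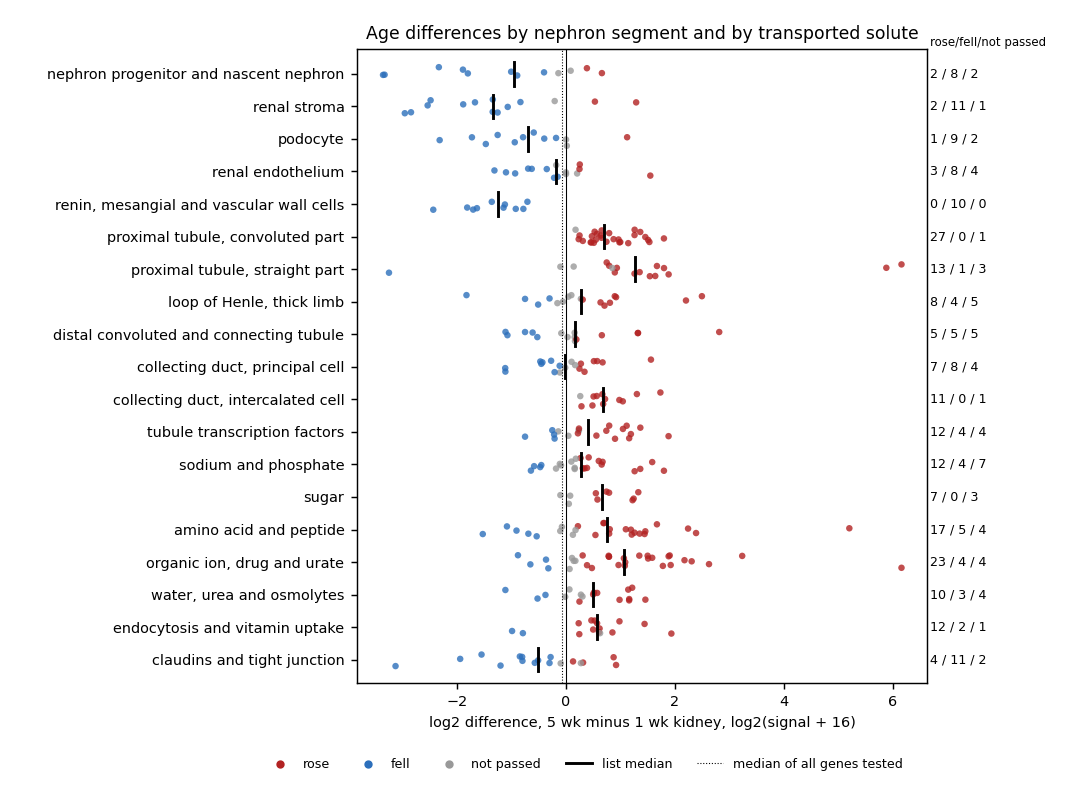
Log2 difference (5 wk minus 1 wk kidney) of each tested gene, 1 point per gene, in 19 lists of nephron segments and transported solutes. Thick bars are list medians, the dotted line is the median of all genes tested (-0.07), and the digits at the right count genes that rose, fell or did not pass; the proximal tubule lists lie almost wholly to the right of 0 and the vascular wall list wholly to the left.

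Genes of the proximal tubule mostly rose. Of 28 tested genes of its convoluted part 27 rose, none fell and 1, the amino acid exchanger Slc7a8, did not pass (0.17 ± 0.11, adjusted p = 0.155), with a median of 0.70. Of 17 genes of the straight part 13 rose, 1 fell and 3 did not pass (median 1.26). The gene that fell, Serpina1, is also a liver product, and its signal of 1400.2, 289, 4918, 174 and 192 at 1 wk was highest in the kidneys with the most Alb. Its part in the list was not tested further. The phosphate cotransporter gene Slc34a3 was at 1674, 1587, 1562, 1465 and 1384 at 1 wk and at 5417, 4948, 5698, 5398 and 5366 at 5 wk. The ages were wide apart, and the rise was 3.48-fold (1.80 ± 0.06, adjusted p = 1.63e-12). Slc22a7, an organic anion transporter of the straight part, rose 3.69-fold (1.88 ± 0.16), and Slc27a2, a fatty acid transporter and acyl-CoA synthetase, rose 2.9-fold (1.54 ± 0.07). The sodium-glucose cotransporter Slc5a1 of the straight part did not pass (-0.10 ± 0.15, adjusted p = 0.537).

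HNF1 and HNF4 are transcription factor families of the proximal tubule, and Hnf4a itself was at 4034, 3585, 4214, 4268 and 4293 at 1 wk and at 8718, 8398, 9812, 9356 and 9324 at 5 wk. All 5 wk kidneys were above all 1 wk kidneys, and Hnf4a rose 2.23-fold (1.16 ± 0.06, adjusted p = 2.66e-10). Promoters were searched on both strands in the 250 bases before the annotated start (RefSeq, GRCr8). The HNF4 letters CAAAGTCCA stood in 2 of 26 convoluted-part promoters (7.69%), against 0.331% of all 27457 promoters and 0.318% of those of tested genes. The HNF1 half-site GTTAAT stood in 4 of 26 (15.4%) and in 3 of 14 straight-part promoters (21.4%). It stood in 6.46% of all and in 4.08% of those of tested genes. The stretches that follow show those letters in capitals for 4 transporter or scaffold genes of the list, read along the gene's strand. A match is a description of the letters and not a measured binding site.
Slc3a1, chr6:15394794-15394874, minus strand, HNF4: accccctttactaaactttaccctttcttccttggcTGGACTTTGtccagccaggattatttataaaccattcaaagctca
Pdzk1, chr2:187064950-187064994, plus strand, HNF4: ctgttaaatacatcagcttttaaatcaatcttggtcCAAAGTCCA
Slc34a1, chr17:9239062-9239166, minus strand, HNF1: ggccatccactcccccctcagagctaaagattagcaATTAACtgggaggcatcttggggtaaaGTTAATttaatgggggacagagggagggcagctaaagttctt
Slc22a8, chr1:214927155-214927232, plus strand, HNF1: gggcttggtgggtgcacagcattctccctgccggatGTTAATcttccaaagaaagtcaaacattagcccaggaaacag

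These 4 genes all rose, as did 27 of the 28 tested genes of the convoluted-part list they were chosen from. Whether the letters bear on the rise was not tested. The cystinuria gene Slc3a1, a subunit of the cystine carrier, went from 11196 ± 431 to 19444 ± 1759 (0.79 ± 0.07), and Pdzk1, which anchors brush border transporters, from 6309 ± 164 to 9959 ± 809.8 (0.65 ± 0.06). Slc34a1, the main phosphate cotransporter, rose from 12512 ± 685 to 15509 ± 1301 (0.31 ± 0.06), though not in a fit of all 30 arrays. Slc22a8, an organic anion transporter, rose from 5841 ± 471 to 8111 ± 509 (0.47 ± 0.08). Its other tested probe set went the other way (-0.53), so its direction is uncertain. Of 20 tubule transcription factors 12 rose, 4 fell and 4 did not pass (median 0.40). Nr1h4, the bile acid receptor, rose 2.28-fold (1.19 ± 0.08) and the oestrogen-related receptor Esrrb 2.57-fold (1.36 ± 0.12). Ppara, the receptor that controls fatty acid oxidation, rose from 27.6 ± 11.3, below the 40th percentile, to 141 ± 27 (1.88 ± 0.22). Ppargc1a, the coactivator of mitochondrial genes (0.23 ± 0.11, adjusted p = 0.0734), and Esrrg (0.04 ± 0.12, adjusted p = 0.759) did not pass. Ppargc1a did without 5 wk replicate 2 (0.30) or 4 (0.28), after centring (0.51) and in a fit of all 30 arrays (0.23). Esrrg passed after centring (0.32). Tfap2b, a factor of the distal tubule, fell 1.69-fold (-0.75 ± 0.11).

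In the thick limb of the loop of Henle, which dilutes urine, 8 of 17 genes rose, 4 fell and 5 did not pass (median 0.27). Egf, the epidermal growth factor made there, was at 2023, 2479, 2443, 2231 and 1977 at 1 wk and at 9861, 9536, 10006, 11209 and 10868 at 5 wk. The ages did not overlap, and Egf rose 4.6-fold (2.20 ± 0.08, adjusted p = 2.79e-12). Ppp1r1a, a phosphatase inhibitor, rose 5.64-fold (2.49 ± 0.09), and Umod, the urinary protein uromodulin, rose 1.63-fold (0.71 ± 0.06). The segment's salt transporter Slc12a1, the target of loop diuretics, was at 3959, 3937, 4195, 4346 and 4373 at 1 wk and at 3920.0, 4606, 3938, 4868 and 5028 at 5 wk, overlapping ranges that did not pass (0.10 ± 0.07, adjusted p = 0.25). Its sign followed the scaling, at 0.37 after centring and -0.17 with quantile normalization, both called. Ptgs2, a prostaglandin synthase of the macula densa, was at 922, 1199.7, 1546, 979 and 969 at 1 wk and at 314, 426, 333, 165 and 319 at 5 wk, a 3.55-fold fall with the ages apart (-1.83 ± 0.28). Irx1, a transcription factor of the forming loop, fell 1.69-fold (-0.75 ± 0.07).

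The distal convoluted and connecting tubule was divided. Of 15 genes 5 rose, 5 fell and 5 did not pass (median 0.16), and after centring 10 rose and 5 fell. Klk1, tissue kallikrein, was at 509.6, 556, 633, 546 and 444 at 1 wk and at 4099, 4289.7, 3996, 3379 and 3564 at 5 wk. No array of one age reached those of the other, and Klk1 rose 7.03-fold (2.81 ± 0.09, adjusted p = 1.27e-12). Kl, the FGF23 co-receptor klotho, rose 2.5-fold (1.32 ± 0.20), and the potassium channel Kcnj16 rose 2.49-fold (1.32 ± 0.05). Slc12a3, the thiazide-sensitive salt transporter, was between 2828 and 3727 at 1 wk and between 3316 and 3620.3 at 5 wk and did not pass (0.16 ± 0.08, adjusted p = 0.0943). It passed without 1 wk replicate 5 (0.22), which was high, and after centring (0.43). The calcium handling genes Calb1 (0.16 ± 0.08, adjusted p = 0.0868) and Trpv5 (0.03 ± 0.11, adjusted p = 0.834) did not pass either. Trpv5 passed after centring (0.30) and with quantile normalization (0.27), and Calb1 after centring (0.44) and without the same kidney, 1 wk replicate 5 (0.23). Without that kidney 8 of the list rose. Slc41a3, a magnesium transporter, fell 2.11-fold (-1.08 ± 0.11).

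Principal cells of the collecting duct, which reabsorb sodium and water, were also divided, with 7 of 19 genes rising, 8 falling and 4 not passing (median -0.02). After centring 11 rose and 2 fell. Sgk1, the kinase that carries the aldosterone signal, was at 2806, 2833, 2370.5, 2734 and 3080.4 at 1 wk and at 10033, 5567, 8225, 8582 and 9101 at 5 wk, 2.95-fold higher without overlap (1.56 ± 0.14, adjusted p = 1.04e-07). The 3 subunits of the epithelial sodium channel moved unequally. Scnn1a rose 1.59-fold (0.67 ± 0.09), Scnn1b fell 1.37-fold (-0.45 ± 0.07, or -0.18 and not passed after centring), and Scnn1g did not pass (-0.12 ± 0.08, adjusted p = 0.213). Aqp2, the vasopressin-regulated water channel, rose 1.49-fold (0.57 ± 0.09), and the keratin Krt18 fell 2.17-fold (-1.12 ± 0.09). Of 12 genes of intercalated cells, which secrete acid or base, 11 rose, none fell and 1 did not pass (median 0.67). Slc26a4, the chloride-bicarbonate exchanger pendrin, was at 392, 422, 487, 305 and 373 at 1 wk and at 1267, 1562, 1425, 1169.8 and 1294 at 5 wk. The 5 wk kidneys were all higher, and the rise was 3.32-fold (1.73 ± 0.11, adjusted p = 1.21e-09). The carbonic anhydrase Car2 rose 2.06-fold (1.04 ± 0.05), and the proton pump subunit Atp6v1g3 rose 1.97-fold (0.98 ± 0.07). Slc4a1, the basolateral anion exchanger, rose 2.46-fold (1.30 ± 0.15). Red cells carry the same protein. The haemoglobin gene Hbb did not pass (0.07 ± 0.09, adjusted p = 0.489), but did as higher after centring (0.34). The part of red cells in the Slc4a1 signal was not tested.

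**Figure D2:**
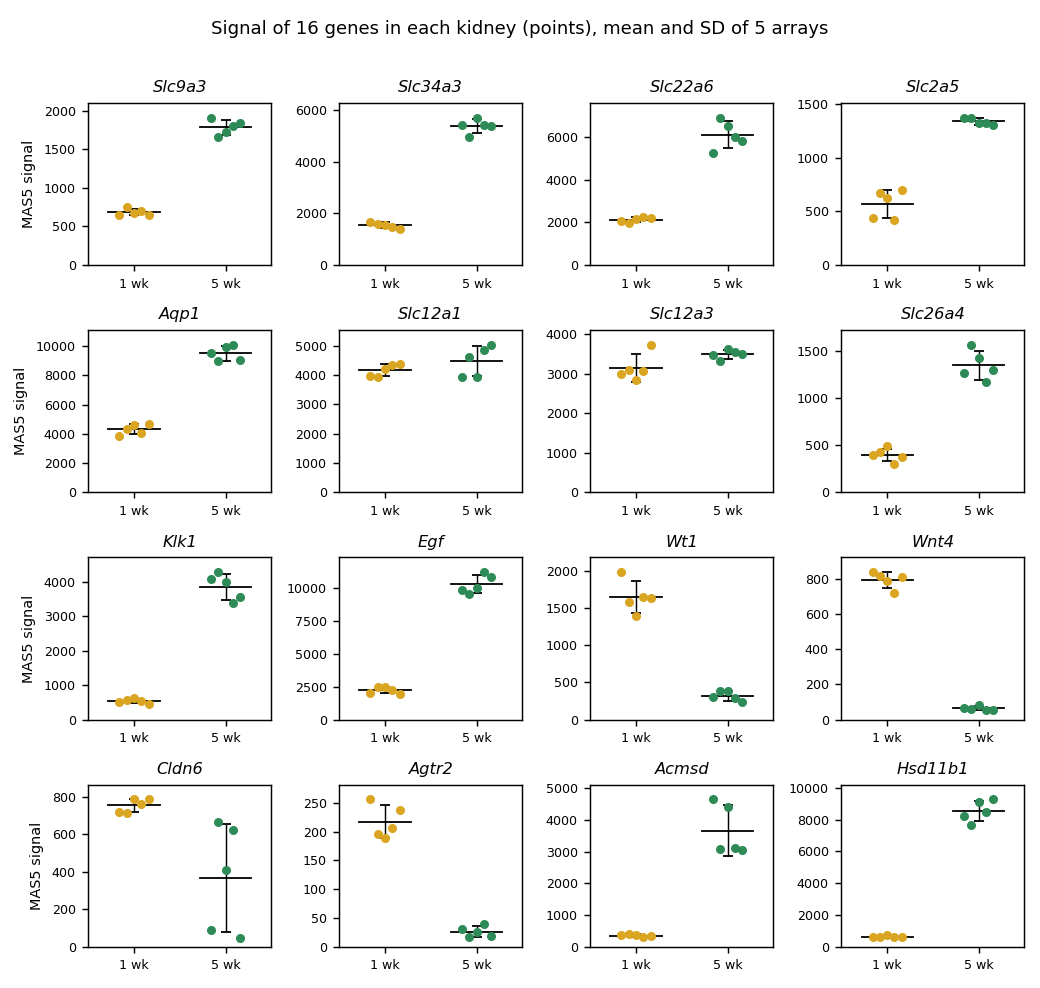
MAS5 signal (linear axis from 0) of 16 genes in each of the 10 kidneys, 1 point per array, with the mean and SD of 5 arrays per age. Slc9a3, Slc34a3, Klk1, Egf and Hsd11b1 lie higher at 5 wk with no overlap, Wt1, Wnt4 and Agtr2 lower, Slc12a1 and Slc12a3 overlap between the ages, and Cldn6 at 5 wk falls into 2 low and 3 higher kidneys.

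Sorted by solute, more genes rose than fell in every transport list but that of the tight junction. Of 23 sodium and phosphate transporters 12 rose, 4 fell and 7 did not pass (median 0.27). Slc9a3, the sodium-proton exchanger NHE3 that drives most proximal sodium uptake, was at 648, 749, 681, 702 and 645 at 1 wk and at 1910.4, 1656, 1727, 1800.3 and 1837 at 5 wk. The ages were apart, and Slc9a3 rose 2.57-fold (1.36 ± 0.06, adjusted p = 1.84e-11). Slc9a8, the exchanger NHE8, rose 1.2-fold (0.27 ± 0.09). Its kidney signal was 327 ± 25.1 at 1 wk and 398 ± 47.7 at 5 wk. Slc4a4, the basolateral bicarbonate carrier of the proximal tubule, rose 2.39-fold (1.26 ± 0.05). Of the widely expressed phosphate carriers, Slc20a2 fell 1.39-fold (-0.48 ± 0.10) and Slc20a1 did not pass (-0.09 ± 0.06, adjusted p = 0.152). Slc20a2 no longer passed after centring (-0.20), and Slc20a1 passed as lower without 1 wk replicate 5 (-0.13) and with quantile normalization (-0.18), but as higher after centring (0.18). Slc12a2, the secretory form of the sodium-potassium-chloride carrier, fell 1.5-fold (-0.59 ± 0.07).

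Of 10 sugar carriers 7 rose, none fell and 3 did not pass (median 0.66). Slc2a5, the fructose carrier, was at 438, 671, 622, 416 and 702 at 1 wk and at 1367, 1374, 1324, 1324 and 1304 at 5 wk. The 1 wk kidneys were spread more widely than the 5 wk kidneys, without overlap, and Slc2a5 rose 2.36-fold (1.24 ± 0.15, adjusted p = 2.36e-06). Slc5a2, which reclaims most filtered glucose, rose 1.67-fold (0.74 ± 0.08), and its basolateral partner Slc2a2 rose 1.46-fold (0.55 ± 0.12). The inositol carrier Slc5a11 rose 2.33-fold (1.22 ± 0.07). The general glucose carrier Slc2a1 did not pass (0.05 ± 0.08, adjusted p = 0.568).

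Of 26 amino acid and peptide carriers 17 rose, 5 fell and 4 did not pass (median 0.74). Slc7a12, a carrier of the SLC7 family, was at 42.7, 101, 57.9, 53.2 and 45.6 at 1 wk, below the 40th percentile, and at 2979.6, 2227, 2448, 2171 and 4033 at 5 wk. Every 5 wk kidney was far above the 1 wk kidneys (5.20 ± 0.23, adjusted p = 2.83e-11), and no fold is given. The carriers of cystine and of lysine and arginine, Slc7a9 (2.39-fold, 1.26 ± 0.04) and Slc7a7 (2.74-fold, 1.46 ± 0.06), rose. The peptide carriers Slc15a1 (1.45-fold) and Slc15a2 (2.14-fold) rose as well. Among the carriers that fell were the glutamine carrier Slc38a1 (2.12-fold, -1.09 ± 0.09), the arginine carrier Slc7a1 (1.45-fold) and Slc7a6 (1.88-fold).

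Organic ion, drug and urate carriers had a median of 1.06, with 23 of 31 rising, 4 falling and 4 not passing. Slc22a6, the exchanger OAT1 that secretes organic anions, was at 2086, 1986, 2149, 2249.7 and 2188 at 1 wk and at 5261, 6919, 6512, 6019 and 5832 at 5 wk. The lowest 5 wk kidney was above the highest 1 wk kidney, and the rise was 2.84-fold (1.51 ± 0.10, adjusted p = 2.62e-09). The organic cation carrier Slc22a2 rose 6.17-fold (2.62 ± 0.10), the urate exchanger Slc22a12 4.95-fold (2.31 ± 0.21), the phosphate and urate carrier Slc17a3 4.52-fold, and the organic anion carrier Slco1a6 9.41-fold (3.23 ± 0.11). The export pumps Abcc3 (1.85-fold, -0.88 ± 0.16) and Abcc5 (1.58-fold) fell.

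Of 17 genes of water, urea and osmolyte handling 10 rose, 3 fell and 4 did not pass (median 0.50). Aqp1, the water channel of the proximal tubule and thin limb, was at 3849.8, 4351, 4583, 4059 and 4666 at 1 wk and at 9492, 8951, 9929, 10079.5 and 9036 at 5 wk, higher in every 5 wk kidney (2.21-fold, 1.14 ± 0.07, adjusted p = 6.71e-10). Aqp7, a channel for water and glycerol, rose 2.74-fold (1.46 ± 0.07), and Aqp4 did not pass (-0.02 ± 0.10, adjusted p = 0.891). Nfat5, the transcription factor of the response to hypertonicity, fell 2.17-fold (-1.11 ± 0.09), while Sord, sorbitol dehydrogenase, rose 2.23-fold (1.16 ± 0.05). The urea carrier Slc14a1 fell 1.3-fold (-0.38 ± 0.11) but did not pass after centring (-0.10), with quantile normalization (-0.14), over the mean of its probe sets (-0.12) or in a fit of all 30 arrays (-0.38). Slc14a2, the vasopressin-regulated urea carrier, did not pass (0.27 ± 0.17, adjusted p = 0.158). It passed without 1 wk replicates 1 and 3 (0.52), after centring (0.55), with quantile normalization (0.46) and over the mean of its probe sets (0.44).

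Of 15 genes of endocytosis and vitamin uptake 12 rose, 2 fell and 1 did not pass (median 0.57). The vitamin C carrier Slc23a1 rose 3.82-fold (1.93 ± 0.08) and Amn, the partner of the cubilin receptor, 1.97-fold (0.98 ± 0.05). The folate carrier Slc46a1 fell 1.99-fold (-0.99 ± 0.09). Among claudins and tight junction genes the balance was the other way, with 11 of 17 falling, 4 rising and 2 not passing (median -0.51). Cldn11 was at 1802, 1680.1, 1477, 1771 and 1610.4 at 1 wk and at 225, 167, 224, 135 and 145 at 5 wk, 8.77-fold lower with the ages apart (-3.13 ± 0.15, adjusted p = 6.61e-11). Cldn6, a claudin of fetal epithelia, was at 719.9, 715, 786, 759.9 and 786 at 1 wk and at 90.4, 664, 408, 625 and 46.8 at 5 wk. The 5 wk kidneys divided, with replicates 1 and 5 far below the other 3. The difference of -1.55 ± 0.60 passed (adjusted p = 0.0303), but not without 1 wk replicate 5 (-1.54), 5 wk replicate 1 (-1.23) or 5 wk replicate 5 (-1.04), without 1 wk replicates 1 and 3 (-1.55), or after centring (-1.28). Cldn2, which makes the proximal tubule leaky to cations, rose 1.83-fold (0.87 ± 0.07), and Cldn10 rose 1.89-fold (0.92 ± 0.06). The endothelial Cldn5 fell 3.85-fold (-1.94 ± 0.09).

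Metabolic genes mostly rose. Over 13 metabolic and hormone lists with 249 tested genes, 191 rose, 18 fell and 40 did not pass. All 14 tested genes of the route from tryptophan to NAD rose (median 1.05). Acmsd, the enzyme that diverts the pathway away from NAD, was at 356, 397, 374, 308 and 334 at 1 wk and at 4655, 3089, 4426, 3118 and 3045 at 5 wk. The 1 wk kidneys lay close together and far below the 5 wk kidneys (9.81-fold, 3.29 ± 0.13, adjusted p = 1.40e-11). Kynu, kynureninase, was at 363, 421, 469.7, 407 and 347 at 1 wk and at 2388, 2055, 2363, 2283 and 2301 at 5 wk, again without overlap (5.52-fold, 2.46 ± 0.07). Haao rose 3.93-fold (1.98 ± 0.08) and Kmo 3.56-fold (1.83 ± 0.08), while the last steps rose less, as in Nmnat3 (1.32-fold, 0.40 ± 0.07) and Nadk (1.28-fold, 0.36 ± 0.10), which did not pass with quantile normalization (0.20). The first enzymes of the route, Tdo2 (2.52 to 64.8 at 1 wk and 5.11 to 29.1 at 5 wk) and Ido1 (16.9 to 40.4 and 7.65 to 74.9), were below the filter and untested, and both were named after their values were seen.

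Of 33 genes of amino acid breakdown, arginine and creatine 32 rose and 1 fell (median 0.96). Glul, glutamine synthetase, was at 4281, 4180.3, 4658, 4552 and 4308 at 1 wk and at 10249.6, 10418, 12006, 12158 and 11076 at 5 wk, 2.53-fold higher without overlap (1.34 ± 0.06, adjusted p = 5.76e-11). Ddc, which makes renal dopamine, rose 3.17-fold (1.67 ± 0.05) and Fah, the last enzyme of tyrosine breakdown, 2.57-fold (1.36 ± 0.05). The gene that fell was Bcat1, the cytosolic aminotransferase of branched amino acids, from 140.2 ± 42.2 to 45.7 ± 29 (-1.45 ± 0.30). Of 12 genes of gluconeogenesis and fructose use 11 rose and 1 fell (median 0.73). Khk, which phosphorylates fructose, rose 2.49-fold (1.32 ± 0.06). Pck1, the cytosolic rate-setting enzyme of gluconeogenesis, passed (0.21 ± 0.08, adjusted p = 0.02) but not without 1 wk replicate 1 or 5 wk replicate 4 or 5 (each 0.18), without 1 wk replicates 1 and 3 (0.20), in a fit of all 30 arrays (0.21), or with quantile normalization (0.039). Its mitochondrial counterpart Pck2 fell 1.65-fold (-0.72 ± 0.07).

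Of 15 glycolysis genes 6 rose, 1 fell and 8 did not pass (median 0.11), and after centring 11 rose and none fell. A further gene fell without 1 wk replicate 3 or 5 wk replicate 2 or 5, making 2. Eno1 rose 1.56-fold (0.64 ± 0.05), Hk1 did not pass (0.08 ± 0.06, adjusted p = 0.247), and Ldha fell (-0.21 ± 0.06), a fall that turned to 0.063 after centring. Hk1 passed as higher after centring (0.36) and with quantile normalization (0.15). Of 21 genes of mitochondrial fatty acid oxidation 12 rose, 1 fell and 8 did not pass (median 0.28). Centring gave 20 rising and none falling, and quantile normalization 8 and 5, so the balance of this list depended on the scaling. Acadm, the medium-chain dehydrogenase, was at 5644, 5881, 6024, 6436 and 6093 at 1 wk and at 11350.4, 11546, 12443, 12942 and 12444 at 5 wk, 2.02-fold higher without overlap (1.01 ± 0.05). Echs1 rose 2.26-fold (1.18 ± 0.07). Hadha, the trifunctional protein subunit, was the gene that fell (-0.23 ± 0.06), and it was at 0.043 after centring. All 5 ketone body genes rose, with Bdh1 (3.39-fold, 1.76 ± 0.16) and Oxct1 (2.49-fold, 1.32 ± 0.06) as examples.

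Of 20 peroxisome genes 16 rose, none fell and 4 did not pass (median 0.88). Dao, which oxidises D-amino acids, rose 3.57-fold (1.83 ± 0.06), Pxmp2, a membrane channel, 2.93-fold, and the thioesterase Acot8 2.84-fold. Of 17 citrate cycle genes 16 rose and 1 did not pass (median 0.51), with Ogdh at 1.68-fold (0.75 ± 0.05) and Idh3g at 1.68-fold (0.75 ± 0.05), while Cs, citrate synthase, did not pass (0.07 ± 0.05, adjusted p = 0.201). Cs passed as higher after centring (0.35) and over the mean of its probe sets (0.18), but as lower with quantile normalization (-0.24). Of 23 respiratory chain genes 22 rose and 1 did not pass (median 0.43), and 16 rose with quantile normalization. Ndufs1 of complex I rose 1.92-fold (0.94 ± 0.05), and Atp5f1b of the ATP synthase did not pass (0.14 ± 0.07, adjusted p = 0.085). It passed without 5 wk replicate 2 (0.18), after centring (0.41) and with the replicate number as a block (0.14).

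Enzymes that modify drugs and steroids gave some of the largest rises. Of 28 conjugation and glutathione genes 23 rose, 3 fell and 2 did not pass (median 1.43), and of 27 cytochrome P450 and other oxidation genes 19 rose, 4 fell and 4 did not pass (median 0.63). Gsta1, a glutathione transferase, was at 1058, 1070.4, 1289.7, 1144 and 1036 at 1 wk and at 9848, 10099.5, 12473, 13069.5 and 12210.2 at 5 wk. The lowest 5 wk kidney was above all 1 wk kidneys, and Gsta1 rose 10.1-fold (3.34 ± 0.10, adjusted p = 8.16e-13). The related Gsta3 went the other way, from 1897, 1775, 1924, 1982 and 1802 at 1 wk to 424, 593, 591, 455 and 606 at 5 wk, 3.47-fold lower (-1.80 ± 0.13, adjusted p = 6.07e-09). Sult1c2, a sulfotransferase, was at 915, 186, 1925, 1111 and 107 at 1 wk, with replicates far apart, and between 6683 and 7889.8 at 5 wk (13.1-fold, 3.71 ± 0.57). Fmo1, a flavin monooxygenase, rose 4.01-fold (2.00 ± 0.09), and Cyp1b1 fell 4.09-fold (-2.03 ± 0.15). Cholesterol synthesis showed no common direction, with 7 of 16 genes rising, 3 falling and 6 not passing (median -0.02). Dhcr7, the last enzyme of the route, rose 2.11-fold (1.08 ± 0.08), and Mvd, of the mevalonate steps, fell 1.47-fold (-0.56 ± 0.09).

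**Figure D3:**
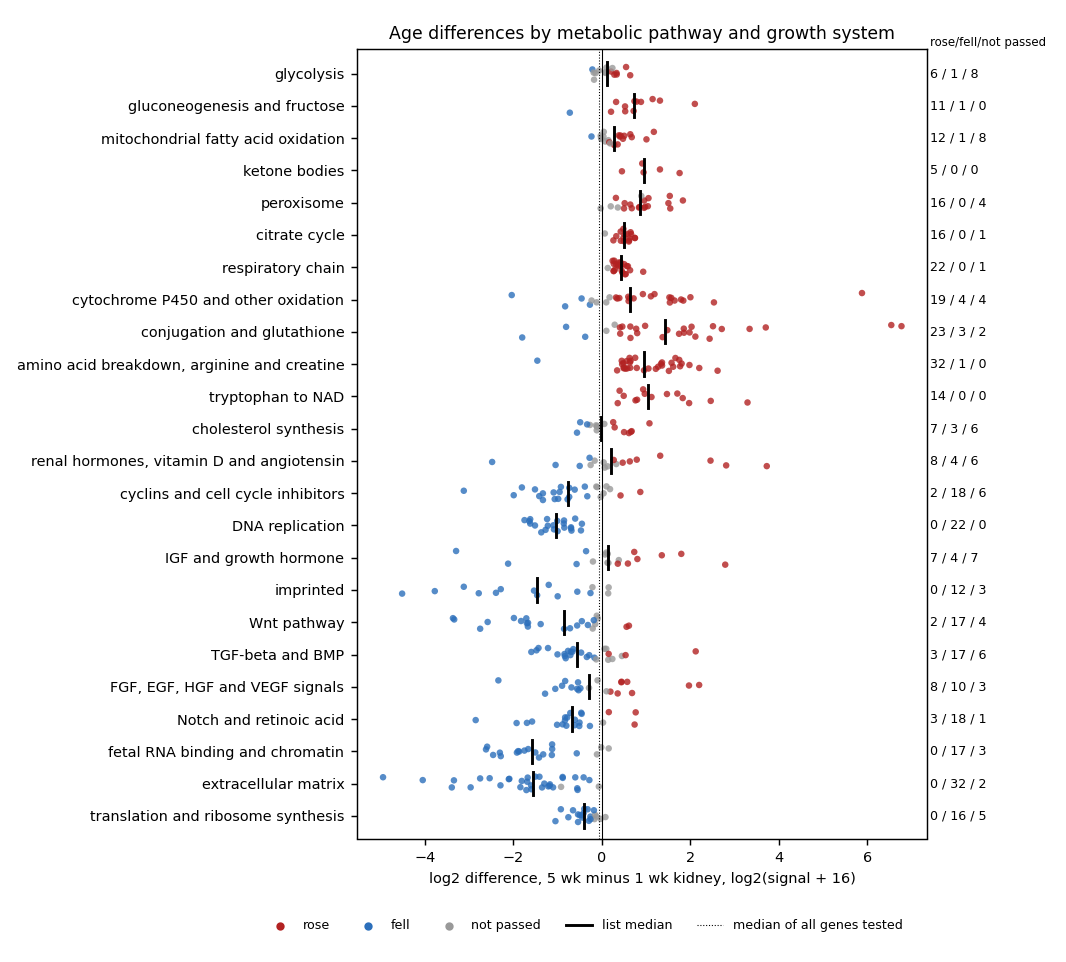
Log2 difference (5 wk minus 1 wk kidney) of each tested gene in 24 lists of metabolic pathways and growth systems, drawn as in the plot of nephron segments. The metabolic lists from gluconeogenesis to the tryptophan route lie mainly to the right of 0, while DNA replication (22 of 22 genes) and extracellular matrix (32 of 34) fell.

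Hormone systems of the kidney changed by component. Hsd11b1, which regenerates active glucocorticoid, was at 599, 603, 725, 638 and 585 at 1 wk and at 8215, 7697, 9085, 8487 and 9284 at 5 wk. The ages were wide apart (13.3-fold, 3.73 ± 0.08, adjusted p = 4.40e-14). Hsd11b2, which inactivates glucocorticoid in aldosterone targets, fell 1.21-fold (-0.27 ± 0.07), and was no longer called after centring. Agtr2, the angiotensin receptor typical of fetal tissue, was at 256, 196, 189, 207 and 237 at 1 wk and between 17.2 and 38.9 at 5 wk, the latter all below the 40th percentile (-2.48 ± 0.21, adjusted p = 4.49e-08). Agtr1a, the receptor that carries most adult angiotensin effects, did not pass (0.07 ± 0.10, adjusted p = 0.53). Ace, which makes angiotensin II, fell 2.06-fold (-1.04 ± 0.18). Cyp27b1, which activates vitamin D, did not pass (0.33 ± 0.19, adjusted p = 0.137). It passed after centring (0.60), with quantile normalization (0.53) and without 5 wk replicate 5 (0.47). Epo, erythropoietin, was below the filter. Over the list of 18, 8 rose, 4 fell and 6 did not pass.

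Growth systems mostly fell. Over 11 growth lists with 247 tested genes, 182 fell, 25 rose and 40 did not pass. Of 23 Wnt pathway genes 17 fell, 2 rose and 4 did not pass (median -0.85). Sfrp1, a secreted Wnt antagonist, was at 3504, 3736, 3970.1, 4168 and 4005 at 1 wk and at 1046, 1176, 956, 1255 and 1006 at 5 wk, 3.54-fold lower without overlap (-1.82 ± 0.08, adjusted p = 6.23e-11). Dkk3, of the Dickkopf family, fell 3.18-fold (-1.67 ± 0.06). The receptor Fzd4 rose 1.53-fold (0.62 ± 0.08). The ligand Wnt2b rose 1.48-fold (0.56 ± 0.19) but did not pass without 1 wk replicates 1 and 3 (0.46). Ctnnb1, beta-catenin, did not pass (-0.11 ± 0.06, adjusted p = 0.106), passed as lower without 1 wk replicate 2 (-0.15), with quantile normalization (-0.30) and over the mean of its probe sets (-0.23), and as higher after centring (0.16). Of 26 genes of the TGF-beta and BMP families 17 fell, 3 rose and 6 did not pass (median -0.55). Tgfb3 (3.01-fold, -1.59 ± 0.08) and Gdf11 (2.69-fold) fell, as did the BMP target Id3 (2.78-fold, -1.47 ± 0.08). Bmp7, a BMP of the nephron, passed (0.16 ± 0.06, adjusted p = 0.0315) but not without 1 wk replicate 2 or 4 or 5 wk replicate 1 or 5 (0.11 to 0.15), with quantile normalization (0.086), or in fits of only the 10 arrays compared or of all 30 (each 0.16). Fst, the activin-binding antagonist follistatin, was at 88.4, 114, 85.5, 70.2 and 83.8 at 1 wk and at 473, 408, 386, 448 and 467 at 5 wk, higher in every 5 wk kidney (2.12 ± 0.13, adjusted p = 1.24e-09).

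Of 21 genes of FGF, EGF, HGF and VEGF signalling 10 fell, 8 rose and 3 did not pass (median -0.29). The balance turned after centring, with 10 rising and 9 falling. Fgf1 was at 416, 463, 475, 443 and 493 at 1 wk and at 1877, 1545, 1682, 2104 and 2057 at 5 wk, 3.92-fold higher with no overlap (1.97 ± 0.09, adjusted p = 4.47e-11). Fgfr2, a receptor needed for ureteric branching, was at 2615, 2488, 2337, 2416 and 2564 at 1 wk and at 463, 506, 502, 511 and 419.6 at 5 wk, 5.05-fold lower (-2.34 ± 0.06, adjusted p = 3.29e-13). Pdgfa, a signal to mesenchymal cells, fell 2.43-fold (-1.28 ± 0.09). The EGF receptor Egfr did not pass (-0.29 ± 0.14, adjusted p = 0.0703), but did as lower without 1 wk replicate 3 (-0.34) or 5 wk replicate 3 (-0.36), and in a fit of only the 10 arrays compared (-0.29). Vegfa did not pass (-0.09 ± 0.05, adjusted p = 0.122) and changed sign with the scaling (0.18 centred, -0.26 quantile-normalized). Of 22 Notch and retinoic acid genes 18 fell, 3 rose and 1 did not pass (median -0.66). Notch1 fell 1.78-fold (-0.83 ± 0.06) and its target Hey1 2.98-fold (-1.57 ± 0.11). The retinol genes Rdh10, an oxidising enzyme (1.7-fold, 0.77 ± 0.08), and Stra6, an uptake receptor (1.67-fold, 0.74 ± 0.12), rose.

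Of 26 cyclins and cell cycle inhibitors 18 fell, 2 rose and 6 did not pass (median -0.75). Cdkn1c, the imprinted inhibitor p57, was at 11045, 10987, 12190.0, 11739.6 and 13139.7 at 1 wk and at 1124, 1420.1, 1232, 1514 and 1483 at 5 wk. All 1 wk kidneys were far above the 5 wk kidneys (8.67-fold, -3.12 ± 0.11, adjusted p = 2.79e-12). The inhibitor Cdkn1a, p21, also fell 2.51-fold (-1.33 ± 0.19), and Cdk4, a kinase of cell cycle entry, fell 1.98-fold (-0.98 ± 0.06). Ccng1 (1.83-fold, 0.87 ± 0.08) and Rbl2, a retinoblastoma relative that holds cells in rest (1.34-fold, 0.43 ± 0.10), rose. All 22 tested DNA replication genes fell (median -1.04), and 21 had no overlap between the ages, while 59.5% of all genes had none and 34.4% had all 5 wk kidneys lower. Mcm6, a subunit of the replicative helicase, was at 1069, 1158, 1079, 1160.5 and 1031 at 1 wk and at 278, 307, 275, 349.9 and 386 at 5 wk (3.35-fold, -1.74 ± 0.11).

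E2F factors drive S phase genes through promoter sites. The E2F letters TTTGGCGC, TTTCCCGC or TTTCGCGC stood on either strand of 7 of 21 DNA replication promoters (33.3%), against 1.49% of all promoters and 2.84% of those of tested genes. The 3 helicase subunit genes below are shown as examples, chosen among the matches, with the letters in capitals. In Mcm5 and Mcm6 matches on both strands overlap, and the capitals cover both.
Mcm5, chr19:13488564-13488647, plus strand: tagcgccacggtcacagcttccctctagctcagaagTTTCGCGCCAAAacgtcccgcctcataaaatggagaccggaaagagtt
Mcm6, chr13:42404444-42404527, minus strand: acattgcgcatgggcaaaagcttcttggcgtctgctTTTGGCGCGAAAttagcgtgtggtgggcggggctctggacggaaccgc
Mcm7, chr12:22163187-22163266, minus strand: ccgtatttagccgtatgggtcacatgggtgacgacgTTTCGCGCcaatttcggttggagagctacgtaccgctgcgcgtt

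Beside Mcm6, Mcm5 fell from 648 ± 29.4 to 202 ± 31 (-1.62 ± 0.14) and Mcm7 from 1519.5 ± 103 to 936 ± 97.3 (-0.69 ± 0.08). Of 18 genes of the IGF and growth hormone axis 7 rose, 4 fell and 7 did not pass (median 0.14), and after centring 13 rose and 2 fell. Igfbp2, an IGF-binding protein of fetal life, was at 4484, 4099, 5505, 4049.6 and 4557 at 1 wk and at 1375, 938, 920.2, 951 and 1020.0 at 5 wk, 4.33-fold lower without overlap (-2.12 ± 0.11, adjusted p = 1.90e-10). Igfals, the acid-labile subunit that stabilises circulating IGF, rose from 41.8 ± 34.6 to 323 ± 44.2 (2.79 ± 0.35). The prolactin receptor Prlr rose 2.56-fold (1.36 ± 0.14), and Igf2r, the receptor that clears IGF2, rose 1.66-fold (0.74 ± 0.05). Igfbp7 did not pass (0.08 ± 0.07, adjusted p = 0.356).

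Of 34 extracellular matrix genes 32 fell, none rose and 2 did not pass (median -1.54). Lamc1, a laminin chain of basement membranes, was at 5666, 5295, 5565, 5753 and 5672 at 1 wk and at 1624, 1766, 1771, 1724 and 1764 at 5 wk, 3.21-fold lower (-1.68 ± 0.05, adjusted p = 1.51e-12) with the ages apart. Emilin1 of elastic fibres fell 4.88-fold (-2.29 ± 0.07), Fn1, fibronectin, 3.03-fold (-1.60 ± 0.06), and the proteoglycan Bgn 1.33-fold (-0.41 ± 0.10, or -0.13 and not passed after centring). Col4a5, a chain of the mature glomerular basement membrane, did not pass (-0.06 ± 0.05, adjusted p = 0.224). It passed as higher after centring (0.21) and as lower with quantile normalization (-0.30). Among 21 genes of translation and ribosome synthesis, 16 fell and 5 did not pass (median -0.39). After centring 8 fell and 2 rose. Nop58, which modifies ribosomal RNA, fell 1.9-fold (-0.92 ± 0.06), and Eef1a1 did not pass (-0.02 ± 0.08, adjusted p = 0.795). Eef1a1 passed as higher after centring (0.25) and as lower with quantile normalization (-0.12).

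Lists of immune cell genes differed in direction. All 8 tested MHC class II genes rose (median 2.44), and their summed signal ran from 2309 to 3482 at 1 wk and from 14701 to 19008 at 5 wk. RT1-Da, a class II chain, was at 425, 714, 619, 404 and 607 at 1 wk and at 3495, 4074, 5115, 4691 and 4333 at 5 wk. RT1-Ba, another chain, was at 202, 204, 297, 27.1 and 148 at 1 wk and at 1075, 2324, 2384, 1301 and 835 at 5 wk. In both, every 5 wk kidney was above every 1 wk kidney (7.76-fold, 2.96 ± 0.18 and 9.17-fold, 3.20 ± 0.60). Ciita, the master regulator of class II genes, rose from 48.8 ± 12.7 to 112 ± 13.9 (1.00 ± 0.15). RT1-Bb was at 85.9, 224, 113, 77.8 and 256 at 1 wk. At 5 wk it was at 1502, 54, 1160.2, 1661 and 876, with replicate 2 below every 1 wk kidney. It passed only narrowly (2.24 ± 0.92, adjusted p = 0.0394), and no longer without 1 wk replicate 1, 3 or 4 or without 5 wk replicate 1, 3, 4 or 5 (1.93 to 2.18), or without both 1 wk kidneys high in Alb (1.97). It also did not pass with a pseudocount of 1 (2.32), nor with no filter, a trended and robust variance or the replicate number as a block (each 2.24). Of 15 interferon response genes 9 rose, none fell and 6 did not pass (median 0.90). Irf7, an interferon regulatory factor, was at 191, 182, 165, 167 and 163 at 1 wk and at 511, 708, 971, 735 and 997 at 5 wk, 4.12-fold higher without overlap (2.04 ± 0.17, adjusted p = 3.21e-08). Isg15, a ubiquitin-like protein induced by interferon, rose from 62.1 ± 35.6 to 408 ± 101 (2.55 ± 0.29), and Ifit1 did not pass (0.13 ± 0.36, adjusted p = 0.757).

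Class II promoters share a Y box, and interferon-stimulated promoters share a response element. The Y box letters CTGATTGG stood on either strand of 4 of 6 class II promoters (66.7%), against 3.26% of all and 4.77% of those of tested genes. The letters GAAANNGAAA stood in 8 of 10 interferon response promoters (80%), against 3.29% of all and 2.57% of those of tested genes. Examples follow, with the letters in capitals.
RT1-Da, chr20:4515327-4515406, plus strand, Y box: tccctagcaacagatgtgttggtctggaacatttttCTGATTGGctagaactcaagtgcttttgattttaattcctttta
RT1-Ba, chr20:4576975-4577054, plus strand, Y box: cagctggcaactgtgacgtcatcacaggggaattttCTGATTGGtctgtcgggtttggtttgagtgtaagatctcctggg
Irf7, chr1:205800047-205800128, minus strand, interferon element: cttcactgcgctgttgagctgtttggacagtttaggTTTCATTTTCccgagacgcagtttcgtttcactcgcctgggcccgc
Cxcl10, chr14:15988816-15988868, plus strand, interferon element: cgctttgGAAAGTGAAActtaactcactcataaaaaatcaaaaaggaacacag

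Cxcl10, an interferon-induced chemokine, had a mean of 133 ± 17.8 at 1 wk and 336 ± 40.1 at 5 wk (1.24 ± 0.14, adjusted p = 1.07e-06). Of 11 macrophage genes 8 rose, 2 fell and 1 did not pass (median 0.83). Lyz2, lysozyme, was at 916, 1553, 1123, 1578 and 1148 at 1 wk and at 5248, 5735, 6672, 7621 and 5934 at 5 wk, higher in every 5 wk kidney (4.95-fold, 2.31 ± 0.15, adjusted p = 3.37e-09). The complement gene C1qa rose 2.49-fold (1.32 ± 0.13), while Mrc1, the mannose receptor of tissue macrophages, fell 2.84-fold (-1.51 ± 0.14). Of 5 tested T and B cell genes 3 rose, 1 fell and 1 did not pass (median 0.59), and of 5 neutrophil and mast cell genes 1 rose, 3 fell and 1 did not pass (median -0.335).

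**Figure D4:**
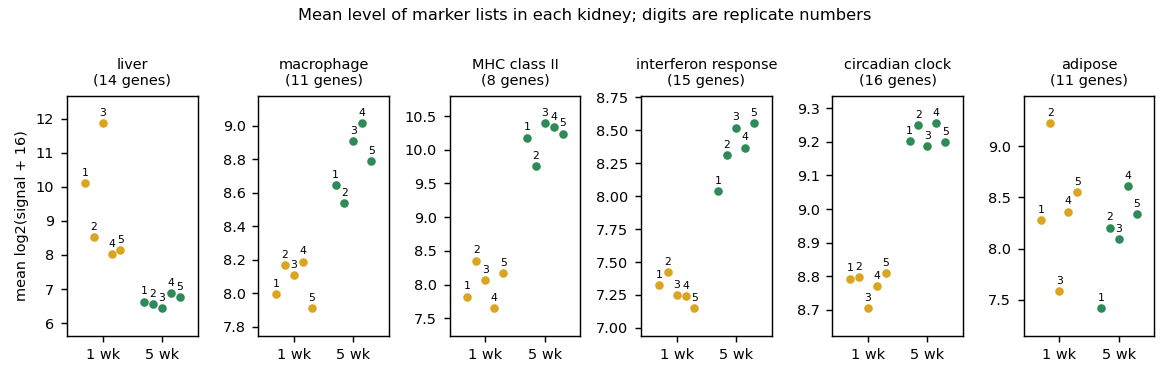
Mean log2(signal + 16) of 6 marker lists in each kidney, with replicate numbers beside the points. The liver list reaches 11.86 in 1 wk replicate 3 and 10.11 in replicate 1 against 6.44 to 6.88 at 5 wk, the macrophage, MHC class II, interferon and clock lists lie higher in all 5 wk kidneys, and the adipose list overlaps between the ages with 1 wk replicate 2 highest at 9.22.

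The largest changes among genes with both means above the 40th percentile and no overlap between the ages included the following. Tff3, a trefoil peptide of epithelia, was at 715, 485, 522, 608 and 403 at 1 wk and at 9707, 12764, 13224, 14048 and 9304 at 5 wk. Each 5 wk kidney was far above the 1 wk kidneys (21.1-fold, 4.40 ± 0.24, adjusted p = 2.98e-10). Dnase1, a nuclease released into urine, rose 13.9-fold (3.80 ± 0.19), and Akr1c13, an aldo-keto reductase, 24.3-fold (4.61 ± 0.24). Apcs, serum amyloid P, rose 16.4-fold (4.04 ± 0.26), Rgn, the vitamin C pathway enzyme regucalcin, 13.1-fold, Xdh, which makes uric acid, 12.8-fold, and Spink1l 37.5-fold (5.23 ± 0.21). On the falling side, Fbln1, a matrix protein, was at 1259, 1126, 1092, 1211 and 1037 at 1 wk and at 88.3, 123, 60.7, 95 and 118 at 5 wk, without overlap (10.5-fold, -3.39 ± 0.13, adjusted p = 9.04e-12). Mfap2 of elastic microfibrils fell 10.1-fold, the cilium gene Dcdc2 8.49-fold, the lipase inhibitor Angptl4 8.31-fold and the receptor phosphatase Ptprs 8.05-fold.

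Whether a change with age differed between kidney and lung was tested as an interaction on all 30 arrays. Of 10149 genes tested in both organs 5519 differed (54.4%). The age difference was higher in kidney for 2064 (20.3%) and lower for 3455 (34%). This test compares changes with age and not the levels in the organs. Centring turned this balance, with 3851 higher and 1693 lower. Among genes called in kidney, Tff3 rose in kidney while its lung difference was -0.09 ± 0.19, and the kidney-minus-lung difference was 4.48 ± 0.27 (adjusted p = 1.44e-13). Akr1c13 differed by 4.45 ± 0.30. Adra2b, an alpha-2 adrenergic receptor, rose in kidney (2.16 ± 0.16) while the lung difference was -2.13 ± 0.16, and the organs differed by 4.29 ± 0.22 (adjusted p = 5.58e-15). The age difference was also higher in kidney than in lung for the transcription factor Etv1 (3.77 ± 0.18), the secretory vesicle protein Ptprn (3.55 ± 0.40) and Ddc (3.44 ± 0.11). In the other direction, Cldn11 fell in kidney while its lung difference was 1.52 ± 0.16, and the organs differed by -4.65 ± 0.23 (adjusted p = 2.02e-15). Gsta3 (-3.12 ± 0.17, lung 1.32 ± 0.12) and Hey1 (-3.03 ± 0.20, lung 1.46 ± 0.14) also had lower age differences in kidney than in lung. So had Adamts15, a matrix protease (-3.10 ± 0.14), Dclk1, a microtubule-linked kinase (-3.07 ± 0.14), and the tubulin Tubb2b (-3.05 ± 0.18). These 12 genes were selected by size among genes called on the same arrays, so the alternatives are no independent check of them. Their direction and call held under the alternatives run for this test.

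**Figure D5:**
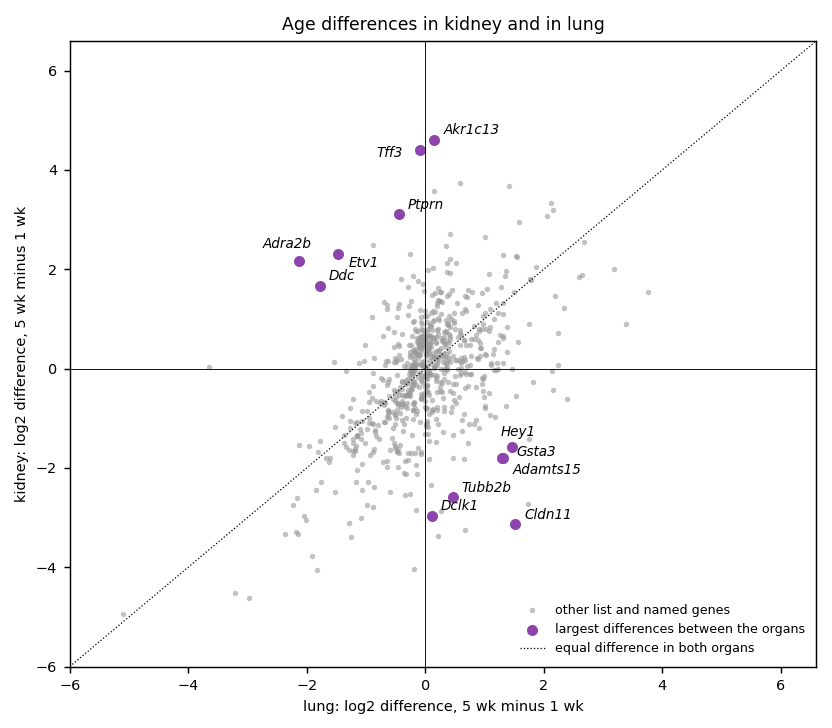
Log2 difference with age (5 wk minus 1 wk) in lung, horizontal, and in kidney, vertical, for listed or named genes tested in both organs, 1 point per gene. The dotted diagonal marks equal differences, and the 12 genes in purple lie far from it, among them Tff3 and Akr1c13 near 0 in lung and Cldn11 on opposite sides of 0 in the organs.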

How the data were processed

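RNA of whole kidney, 2 ug per array extracted with TRIzol and RNeasy per the labels' protocols, was hybridised as biotin-labelled target to single-colour Affymetrix rat arrays. The authors deposited MAS5 signals, an intensity on a linear scale, according to the submitters' processing notes, where no version is given. The values were scaled to a common trimmed mean (2% left out at each end), and no further normalization was applied. Such scaling can shift many genes together, since the arrays' medians differed by age. Of 31099 probe sets, 57 were controls, 20826 were annotated to 1 gene, 436 to several and 9780 to none. The probe set with the highest mean stood for its gene (14213 genes), and genes are named as in that annotation. Tested genes, 10908 in all, reached the 40th percentile of the array on 5 or more of the 15 kidney arrays.

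Signals were taken as log2(signal + 16) and fitted with limma 3.58.1 (lmFit, eBayes; R 4.3.3) over the 15 kidney arrays in 3 groups, with Benjamini-Hochberg adjustment over all genes tested. The kidney-minus-lung interaction used all 30 arrays as independent samples. The sample titles do not say whether same-numbered kidneys and lungs of a group came from 1 rat. As an alternative, they were taken as 1 animal, which gave 2164 genes higher and 3626 lower in kidney minus lung. The procedure was tested on simulated data. The labels call the arrays biological replicates. They do not say which rats were littermates. Same-numbered kidneys of the ages did not deviate together (correlations from -0.0759 to 0.0625), so the values gave no sign of a pairing by number. Shared litters or batches were not examined.

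The 59 gene lists (1146 genes, 1007 on the array) and the rules were chosen with earlier results of these data known. Genes were named by a rule. It took the 12 largest rises and falls between arrays that did not overlap, a panel, up to 4 members of each list with the smallest adjusted p in each direction and up to 3 with the largest, and 6 genes per direction of the kidney-minus-lung test. Mcm5, Mcm7, Slc3a1, Pdzk1 and Cxcl10 were added for their promoter letters. Promoters of RefSeq (GRCr8) were searched over 250 bases upstream. No Fisher or other list test was run. Alternatives were pseudocounts of 1 and 64, a filter at the 60th percentile or none, median centring, quantile normalization, the mean of probe sets, a trended and robust variance, other sets of arrays, a replicate block and leaving out each array. Leaving out the kidneys with Alb above 5000 was chosen after seeing the data. Python 3.11.15 and matplotlib 3.10.9 drew the figures.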

Additional observations from a re-analysis of the deposited data

Results flagged for a closer look

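Single kidneys stood apart from the other 4 of their age in 17 of 478 groups examined. That is fewer than the about 1 in 20 that chance alone gives, so the flags listed here do not exceed chance as a set. The ratio in parentheses is the gap to the nearest kidney over the range of the group. At 5 wk, replicate 1 was lowest in Aqp2 (signal 6706, ratio 0.720), Fabp4 (119, 0.734) and Plin1 (21.8, 0.828), and highest in Igfbp2 (1375, 0.744). Replicate 2 was lowest in RT1-Bb (54.0, 0.801) and Slc15a2 (1946, 0.746) and highest in Abcc5 (507, 0.778). Replicate 3 was highest in Hadha (3509, 0.786). Replicate 5 was lowest in Clic5 (174, 0.910) and highest in Bgn (1678, 0.779) and Slc41a3 (182, 0.772). At 1 wk, replicate 1 was highest in Kl (424, 0.818), and replicate 4 was lowest in Ppara (8.28, 0.784). Replicate 5 was lowest in Clock (501, 0.755), Nadk (1732, 0.802) and Slc17a3 (530.5, 0.878) and highest in Vwf (177, 0.853).

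The change with age differed between the organs by the interaction test for the 12 genes selected by their size. Kidney minus lung was 4.48 for Tff3, 4.45 for Akr1c13, 4.29 for Adra2b, 3.77 for Etv1, 3.55 for Ptprn and 3.44 for Ddc. It was -4.65 for Cldn11, -3.12 for Gsta3, -3.10 for Adamts15, -3.07 for Dclk1, -3.05 for Tubb2b and -3.03 for Hey1.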

How the results depend on the processing

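The counts of genes that rose or fell were most sensitive to the scaling of the arrays. Centring each array on its median gave 5363 rising and 2684 falling genes in all, 11 falling in the metabolism lists and 52 rising in the growth lists, and for kidney minus lung 3851 higher and 1693 lower. A filter at the 60th percentile left 29 rising and 29 falling in the other cell type and state lists, since fewer genes were tested. Leaving out each array in turn gave 3242 to 3306 rising and 4341 to 4404 falling genes. It gave 85 to 91 and 63 to 66 in the segment lists, 81 to 85 and 28 to 30 in the transport lists, and 189 to 191 and 18 to 19 in the metabolism lists. In the growth lists it gave 21 to 25 and 177 to 184, in the other lists 42 to 45 and 40 to 45, and for kidney minus lung 1982 to 2059 higher and 3327 to 3424 lower. Without the 1 wk kidneys with Alb above 5000, 3137 genes rose and 4232 fell. With the replicate number as a block, which the data do not support as a pairing, 3344 rose and 4445 fell, and RT1-Bb no longer passed. The other settings kept these counts within 1.5 times the reported ones.

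Of 239 tested genes named here, 33 did not pass; 26 of these were called after centring and 14 with quantile normalization, while of the 206 called genes 10 and 5 were lost and none was called in the opposite direction. Sign changes are given only for genes called in the reported fit or under the alternative. Genes called in neither are left out, though some of these also changed sign. After centring, signs changed for Actn4 (0.27), Aqp4 (0.26), Col4a5 (0.21), Ctnnb1 (0.16), Eef1a1 (0.25) and Hadha (0.043). They also changed for Krt7 (0.26), Ldha (0.063), Slc20a1 (0.18), Vegfa (0.18) and Uty (0.00066). With quantile normalization, signs changed for Cs (-0.24) and Slc12a1 (-0.17). Over the mean of probe sets they changed for Slc22a8 (-0.028) and Uty (0.081). The centring values follow from adding about 0.274 to each difference, and the cause of the others was not tested. Which scaling is nearer to the amounts of RNA per kidney cannot be told from these files, and 5 arrays per age and signals near background limit small differences.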

Other observations

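Genes of the circadian clock differed between the ages in both directions. Of 16 tested, 9 rose, 5 fell and 2 did not pass, with a median of 0.58, and 2 fell after centring. Nr1d1, a repressor of the clock, was at 216, 218, 191, 187 and 185 at 1 wk and at 740.0, 826, 721, 872 and 744 at 5 wk, and the ages did not overlap (3.7-fold, 1.89 ± 0.10, limma adjusted p = 2.63e-10). Dbp, a clock output factor, rose 2.91-fold (1.54 ± 0.06), Clock, a core activator, 2.16-fold (1.11 ± 0.05), and the repressor Bhlhe41 rose from 55.6 ± 9.78 to 331 ± 44.5 (2.28 ± 0.13). Cry1, another core repressor, was at 513, 594, 551, 540.3 and 565 at 1 wk and at 262, 241, 231, 313 and 238 at 5 wk, again without overlap (2.09-fold lower, -1.07 ± 0.10). Nfil3, which opposes Dbp, fell 2.57-fold (-1.36 ± 0.08). In lung, Nr1d1 (2.65 ± 0.12), Cry1 (-1.06 ± 0.11) and Nfil3 (-1.16 ± 0.11) had differences of the same sign. The hour of collection is not in the labels, and its part in these values cannot be told apart from age.

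Markers of tissues next to the kidney were measured as well. Mrap, an accessory protein of the adrenal ACTH receptor that fat cells also make, rose from 61 ± 19.5 to 575 ± 68 (2.97 ± 0.45), and it was the only adrenal marker tested. Cidec, a lipid droplet protein, rose 4.7-fold (2.23 ± 0.15), while Plin1, Fabp4 and Ucp1 of fat cells fell and their ages overlapped. Of 11 adipose genes 2 rose, 5 fell and 4 did not pass, and 3 fell without 1 wk replicate 2 or 5 wk replicate 1, when Ucp1 did not pass (-1.30 and -1.20). After centring 3 rose and 3 fell. Of 5 nerve and Schwann cell genes 4 fell and 1 did not pass (median -1.89). Uchl1, a neuronal hydrolase, fell 3.71-fold (-1.89 ± 0.19), and Mbp, a myelin protein, fell 1.61-fold (-0.69 ± 0.14). Of 6 urothelial genes 4 fell and 2 did not pass, with the plaque protein Upk3a 1.72-fold lower (-0.78 ± 0.13) and the keratin Krt7 at -0.02 ± 0.07 (adjusted p = 0.845). Krt7 passed as higher after centring (0.26) and as lower with quantile normalization (-0.21). How much of each tissue was taken with the kidneys was not tested.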
